A study of Mus musculus with 2 samples.

Results

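The cytosolic ribosomal protein genes encode the proteins that, together with ribosomal RNA, build the large and the small subunit of the ribosome. Their members were taken by name, as symbols that start with Rpl or Rps followed by a number together with *Rplp0*, *Rplp1*, *Rplp2* and *Rpsa*, without pseudogenes and without the Rps6k kinases. The rule gave 87 of the 24022 genes tested, 53 of the large and 34 of the small subunit by name, and the rule itself uses symbols and no measured value. Of the 87, 76 encode standard proteins of the ribosome, 9 are paralogs and 2 (*Rps19bp1* and *Rps23rg1*) fit the name but encode other proteins. The genes were measured in mouse embryonic stem cells (mESCs) with the genotype AIMP3f/f;cre-ERT2, in which 4-hydroxytamoxifen (4-OHT) switches on a Cre recombinase that deletes the *AIMP3* gene (symbol *Eef1e1*). Cells were kept in serum medium, generally on a feeder layer of mouse embryonic fibroblasts (MEFs), and with LIF received 2 μM tamoxifen (AIMP3-depleted, 2 replicates) or ethanol (control) for 4 days. The methods describe MEF-conditioned medium, rather than feeders, for drug treatment. Each replicate had 1 Agilent array, with its own RNA in Cy5 (the AIMP3-depleted channel) and a pool of control RNA in Cy3. The control is therefore 1 sample of the same genotype, so that a test of the ratio against 0 does not include how control cultures vary. An effect of AIMP3 loss cannot be told apart from one of 4-OHT, of active Cre or of the dyes, which were not swapped.

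Ribosomal proteins are made in stoichiometric amounts, and many of their mRNAs begin with a cytosine and a run of pyrimidines, the terminal oligopyrimidine (TOP) motif, through which nutrient and growth signals set their translation. Free ribosomal proteins of some kinds bind Mdm2, the ubiquitin ligase of p53, when ribosome assembly is disturbed. AIMP3 belongs to the multi-aminoacyl-tRNA synthetase complex, which charges the tRNAs that ribosomes read.

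The start regions of some of the genes with the highest and the lowest ratios, among those with a RefSeq window, are shown because they hold the place of the TOP motif. Each line gives 30 bases of the gene's strand from RefSeq on GRCm38.p6, from 15 bases before the annotated start to 15 bases from it, with runs of at least 6 pyrimidines (C or T) in capitals.
Rplp0 chr5:115559452-115559481, plus strand: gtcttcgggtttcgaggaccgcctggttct
Rpl23 chr11:97782425-97782454, minus strand: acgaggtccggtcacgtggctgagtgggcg
Rps28 chr17:33824548-33824577, minus strand: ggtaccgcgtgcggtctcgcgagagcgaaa
Rps24 chr14:24490663-24490692, plus strand: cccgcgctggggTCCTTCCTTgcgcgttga
Rpl22l1 chr3:28805493-28805522, plus strand: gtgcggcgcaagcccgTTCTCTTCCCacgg
Rpl7l1 chr17:46782642-46782671, minus strand: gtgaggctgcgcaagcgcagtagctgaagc
Rps18 chr17:33955651-33955680, minus strand: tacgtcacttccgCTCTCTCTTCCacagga
Rps4x chrX:102189377-102189406, minus strand: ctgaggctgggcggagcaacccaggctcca

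RefSeq start windows were found for 67 of the 87 genes. Of these, 36 (53.7%) held a run of at least 6 pyrimidines on the gene's strand, against 29.1% of 27025 windows of the same length at all starts. Genes with and without a run stood at both ends of the family. Among the genes with the highest log2 ratios, *Rps24* held a run in this window and *Rplp0*, *Rpl23* and *Rps28* did not, and among those with the lowest, *Rpl22l1* and *Rps18* held one and *Rpl7l1* and *Rps4x* did not. The median log2 ratio was 0.17 over the 36 genes with a run and 0.097 over the 31 without, which is a description of these windows and no test of the motif.

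*Eef1e1* itself had log2 ratios of AIMP3-depleted over control of -0.90 and -0.90 on the arrays of replicates 1 and 2 (SD 0.00665, n = 2, limma adjusted p = 4.77e-05), so the targeted gene was lower in the treated cells. Pairs of values are given in this order of replicates throughout. The ratio was -0.29 with raw signals, where the median of all genes was 0.57. Each array held 62976 spots, 59.3% to 60.6% of the spots that are not controls were well above background in a channel, and 0 were marked as saturated. The fit was made with limma on 2 arrays, and its p-values measure only the spread between these arrays, which the labels do not tie to separate cultures beyond calling them replicates. In bulk RNA, fewer cells of a type and less RNA per cell cannot be told apart.

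All 87 ribosomal protein genes passed the filter on dim probes, which required that each array show the probe well above background in 1 channel or more, and all did so in both channels. After loess normalization, 51 genes were raised and 7 lowered in AIMP3-depleted cells at a limma adjusted p under 0.05, and 29 did not pass. Over all genes tested, 30.6% were raised and 23.7% lowered. The median log2 ratio of the 87 genes was 0.20 and 0.14 on the 2 arrays. With each gene averaged over the arrays first, the median was 0.16 against 0.016 over all genes, but it was -0.0021 with the scanner's processed signals and 0.0024 after a loess with a narrower span. So the family as a whole had no direction that all scalings shared. Both arrays gave the same sign for 81 of the 87 genes, and the median SD between arrays was 0.039.

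**Figure D1:**
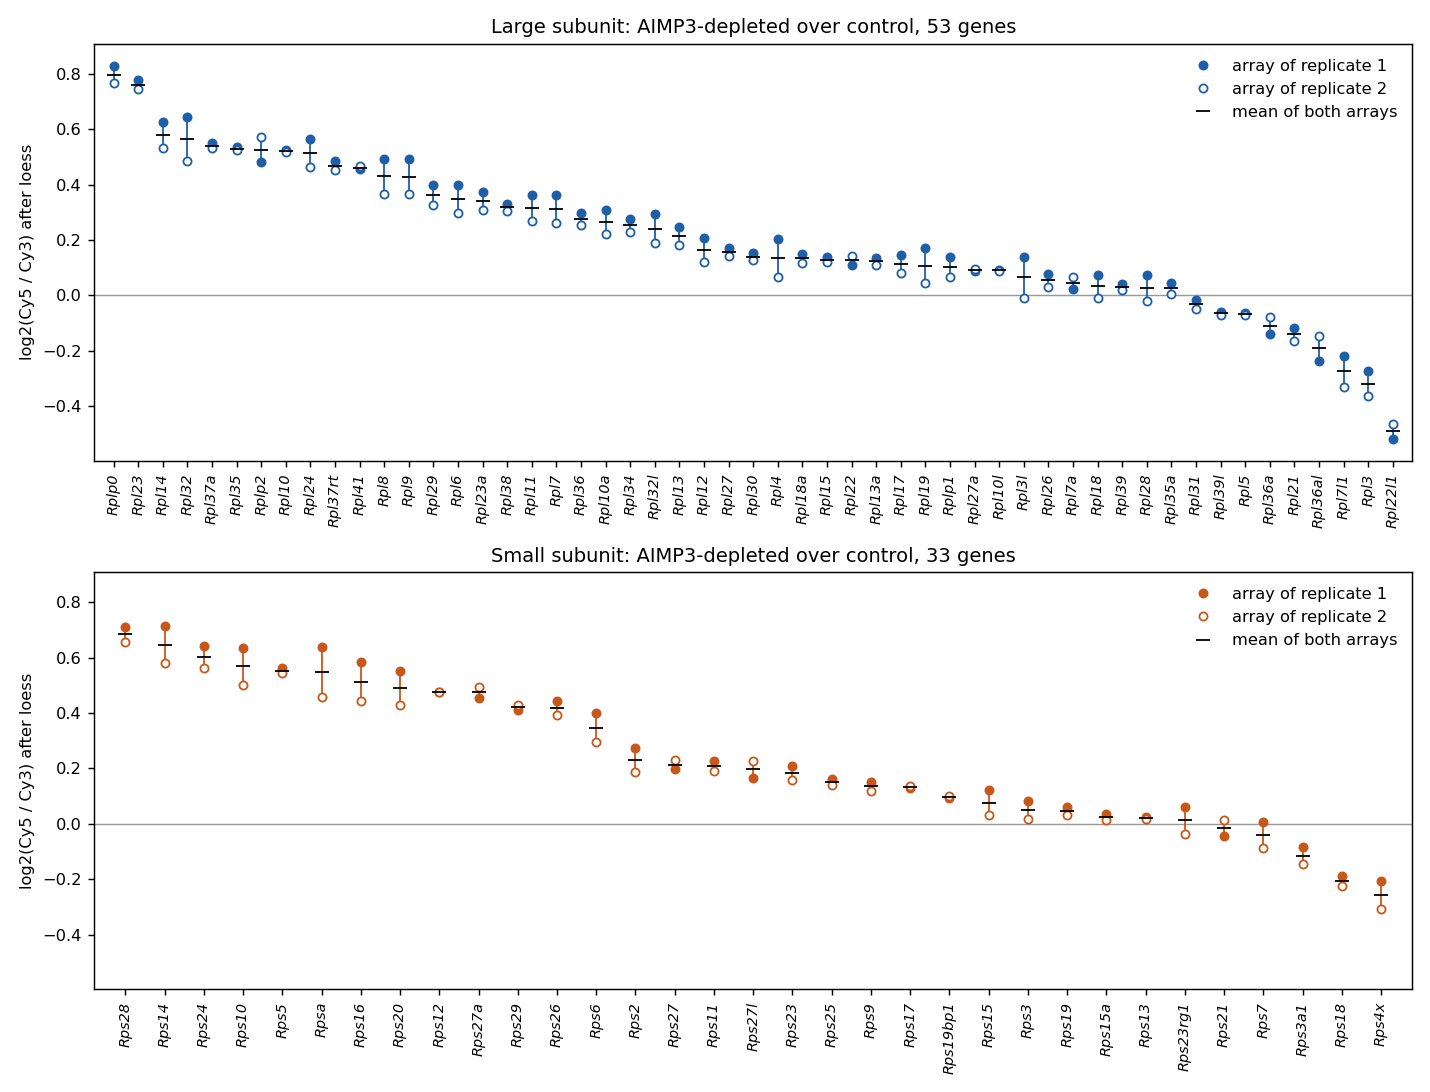
Log2 ratio of Cy5 (AIMP3-depleted) over Cy3 (control pool) after loess for 53 large-subunit genes above and 33 small-subunit genes below, ordered by the mean. Filled and open points are the 2 arrays and the dash is their mean. The ratios run from 0.80 (*Rplp0*) to -0.49 (*Rpl22l1*), and most pairs of points lie close together, while the median of the genes falls to -0.0021 with processed signals.

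The genes with the highest ratios belong to both subunits. *Rplp0*, which anchors the stalk that recruits translation factors and is often used as a reference transcript, had log2 ratios of 0.83 and 0.77 (SD 0.043, limma adjusted p = 6.62e-05), a 1.74-fold rise. Its raw log2 signals were 16.46 and 16.82 for the control pool and 18.36 and 18.40 for AIMP3-depleted RNA, on a scale on which Cy5 lay above Cy3 by 0.57 at the median of all genes. *Rpl23*, a large-subunit protein that can bind Mdm2, had log2 ratios of 0.78 and 0.75 (SD 0.021, limma adjusted p = 7.05e-05). Small-subunit genes were among those past 1.5-fold as well. *Rps28* was at 0.71 and 0.66, *Rps14* at 0.71 and 0.58, and *Rps24*, needed for processing of the small-subunit ribosomal RNA, at 0.64 and 0.56. These genes rose on both arrays and kept a positive ratio in every scaling tried. In all, 6 of the 87 genes rose and 0 fell by over 1.5-fold. At 1.5-fold with an unadjusted p under 0.05, the share of all genes was 5.53% raised and 0.791% lowered. With processed signals the genes named here lay between 0.37 and 0.57, and 0 of the 87 genes passed 1.5-fold.

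The stalk genes differed from each other. *Rplp2* was raised with log2 ratios of 0.48 and 0.57, while *Rplp1*, its partner in the stalk, was at 0.14 and 0.065 and did not pass (limma adjusted p = 0.105). With processed signals *Rplp1* had a ratio of -0.13 and *Rplp2* one of 0.22, and the call of *Rplp2* was then lost (limma adjusted p = 0.0515). With the narrower loess *Rplp1* was at -0.17 and was lowered (limma adjusted p = 0.0192), while *Rplp2* was raised at 0.18 (limma adjusted p = 0.0273). *Rplp0*, by its brightest probe, kept the highest ratio of the family under loess, processed signals and the narrower loess. With the mean of all tested probes after loess it was at 0.47, and *Rps28* was highest at 0.68.

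Fewer genes were lowered. *Rpl22l1*, a paralog of the large-subunit gene *Rpl22*, had the lowest log2 ratio of the family at -0.52 and -0.46 (SD 0.038, limma adjusted p = 0.000323). *Rpl3*, whose protein reaches toward the catalytic centre of the large subunit, was at -0.27 and -0.36 (SD 0.064, limma adjusted p = 0.00197), and *Rps4x*, the X-linked small-subunit gene, at -0.21 and -0.31 (SD 0.071, limma adjusted p = 0.00499). *Rps18*, *Rpl7l1*, *Rpl36al* and *Rpl21* were the others, with mean log2 ratios of -0.21, -0.27, -0.19 and -0.14. *Rps18* and *Rpl21* lost their calls with the mean of their probes (-0.12 and -0.087, limma adjusted p = 0.0575 and 0.142), the probes of *Rpl21* being at -0.14, -0.22 and 0.10, and *Rpl36al* with processed signals (-0.14, limma adjusted p = 0.0959). All of these genes had a ratio above 0 in raw signals, where the median of all genes was 0.57, and all but *Rpl22l1* and *Rpl7l1* also after median centring, where that median was 0.18. Relative to these medians *Rpl22l1* was at -0.23 in raw signals and -0.24 after centring, and *Rpl7l1* at -0.25 in both. The test is against 0 and not against these medians. Against 0, neither gene was called after centring, and in raw signals each was called raised (limma adjusted p = 0.018 and 0.026). Relative to the medians *Rpl3* was at -0.0087 and -0.013, and *Rps4x*, *Rps18*, *Rpl36al* and *Rpl21* were above them by between 0.014 and 0.13. The direction of these 4 against all genes thus turned in scalings that leave the trend with intensity in place. With processed signals, *Rpl22l1* was at -0.53, *Rpl3* at -0.49, *Rps4x* at -0.30 and *Rps18* at -0.28, so these genes stayed low in scalings that follow spot intensity.

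Small-subunit genes stood slightly above large-subunit genes. Of the 53 large-subunit genes, 29 were raised and 5 lowered (54.7% and 9.43%), with a median log2 ratio of 0.14. Of the 34 small-subunit genes, 22 were raised and 2 lowered (64.7% and 5.88%), with a median of 0.20. Over all genes, 30.6% were raised and 23.7% lowered. The difference of the medians, large minus small, was -0.032 and -0.064 on the 2 arrays. It was -0.053 with processed signals, -0.063 with the narrower loess and -0.066 with raw signals. The difference is small beside the interquartile range of the 87 genes, 0.40, and it was not tested, since genes are not replicates. Without paralogs and the 2 other proteins, 27 of 45 large-subunit genes were raised and 2 lowered, and 21 of 31 small-subunit genes were raised and 2 lowered. These counts were 9 and 2 for the large and 10 and 3 for the small subunit with processed signals. With the narrower loess they were 11 and 10, and 13 and 6. The shares of all genes raised and lowered were 21.9% and 23.3% with processed signals, and 29.8% and 24% with the narrower loess.

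Paralogs of ribosomal protein genes had ratios of both signs. Of the 9 paralogs among the members, 3 were raised, 3 were lowered and 3 did not pass, shares of 33.3% each way beside the 30.6% and 23.7% of all genes. With processed signals 1 was raised and 2 were lowered, and with the narrower loess 1 and 3. Each paralog can be set against the gene it resembles on the same arrays. *Rpl22l1* minus *Rpl22* was -0.63 and -0.61 on the log2 scale, and the difference was -0.41 with processed signals, -0.46 with the narrower loess and -0.50 with the mean of all probes. *Rpl7l1* lay below *Rpl7*, with a difference of -0.59 that was -0.38 with processed signals and -0.30 with the narrower loess. This rests on the brightest of 4 *Rpl7* probes, which were at 0.31, 0.14, -0.037 and -0.25, and the difference was -0.32 with the mean of all probes. The *Rpl7l1* spot was far dimmer, at an intensity of 10.43 against 17.28 for *Rpl7*. *Rps27l*, a gene that p53 is known to activate, differed from *Rps27* by -0.017 after loess and by 0.15 with processed signals, so the order of this pair depends on the scaling. *Rps27l* alone had log2 ratios of 0.17 and 0.23 (limma adjusted p = 0.0113), and 0.14 with processed signals (limma adjusted p = 0.0908). *Rpl10l*, *Rpl39l* and *Rpl3l*, known from testis or muscle, did not pass, with mean log2 ratios of 0.090, -0.064 and 0.065. *Rpl3l* lay above *Rpl3*, by 0.41 and 0.36, and by 0.44 with processed signals and 0.55 with the narrower loess, but below it by a difference of -0.13 after median centring. The *Rpl3l* spot was the dimmest of the 87 genes, at an intensity of 7.16 against 16.71 for *Rpl3*. Spots of *Rpl10l* and *Rpl39l* were at 12.57 and 12.04, against 17.57 and 16.81 for *Rpl10* and *Rpl39*. *Rpl10l* minus *Rpl10* was -0.43, and -0.23 with processed signals and -0.095 with the narrower loess. *Rpl32l* minus *Rpl32* was -0.32, and -0.27 with processed signals. *Rpl39l* and *Rpl36al* differed from *Rpl39* and *Rpl36a* by -0.095 and -0.082, and these differences turned to 0.023 and 0.014 with processed signals. A fixed list of paralogs differs from these 9, among the genes tested, in that it holds *Rps4l* and *Rpl36a*, the parent of *Rpl36al* in the pair above, and lacks *Rpl37rt* and *Rpl32l*. Of this list 9 of 11 were tested, with 1 raised and 4 lowered and a median log2 ratio of -0.11, among the lowered ones *Rps4l* at -0.37 and -0.24, which RefSeq calls a pseudogene and which is not counted among the 87. Near-identical copies such as *Rpl37rt* and *Rpl32l* may share signal with their parent genes, so their values are uncertain.

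Ribosomal proteins known to bind Mdm2 were followed because they link ribosome assembly to p53. Of the 10 genes of this list, 6 were raised and 0 lowered after loess (median log2 ratio 0.21 against 0.016 over all genes), 3 were raised and 0 lowered with processed signals, and 3 were raised and 2 lowered with the narrower loess. The share raised after loess, 60%, is near the 58.6% of the 87 genes. Over all genes 30.6%, 21.9% and 29.8% were raised in these scalings, and 23.7%, 23.3% and 24% lowered. *Rpl5* and *Rpl11*, which bind Mdm2 together, were at -0.064 and -0.070, and at 0.36 and 0.27, on the arrays of replicates 1 and 2. *Rpl11* was raised (limma adjusted p = 0.00209), but its ratio was 0.024 with processed signals. *Rpl26*, *Rps3* and *Rps7* did not pass after loess, with mean log2 ratios of 0.054, 0.051 and -0.040. With processed signals they were at -0.079, -0.046 and -0.13. The genes lowered with the narrower loess were *Rpl26* (-0.13, limma adjusted p = 0.0472) and *Rps7* (-0.20, limma adjusted p = 0.0122), and *Rps3* was at -0.015 there. *Rps27a*, which encodes a fusion of ubiquitin with a small-subunit protein, was raised at 0.45 and 0.50, with 0.20 with processed signals. *Rps27* was raised after loess at 0.20 and 0.23, and its ratio turned to -0.0094 with processed signals and -0.037 with the narrower loess.

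Probes of the same gene often disagreed. Of the 87 genes, 35 had 1 tested probe and 52 had 2 or more, with 174 tested probes in all and up to 7 for a gene. The median range between the probes of a gene was 0.25 on the log2 scale, against a median SD between arrays of 0.030 for the same probes, and probes differed in sign in 30 of the 52 genes. The range between probes was thus larger than the SD between arrays, but these are unlike measures, and a range widens with the number of probes. Some genes had probes far apart. *Rps27a* ranged from 0.47 down to -0.40, and *Rpl23* from 0.76 to -0.0067. The lowest probes of these genes were also their dimmest, at intensities of 8.16 and 12.84, and their remaining probes were at 0.35 and 0.42. *Rpsa*, the small-subunit protein also known as a laminin receptor, ranged from 0.55 to -0.14, and with the mean of its probes it was not called (0.12, limma adjusted p = 0.0546). In *Rps24* the probe in the middle by intensity was at 0.63 and the dimmest at -0.0071. In *Rplp0* all 3 probes were positive after loess, at 0.80, 0.40 and 0.23. The brightest probe had the higher ratio than the dimmest in 45 of the 52 genes, and in 38 with processed signals. The intensity that ranks the probes holds the Cy5 signal, which also enters the ratio. Of the genes raised by their brightest probe, 18 had at least 1 probe with a ratio below 0. The array files hold no probe sequences, so whether the probes read different transcripts or copies was not tested.

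**Figure D2:**
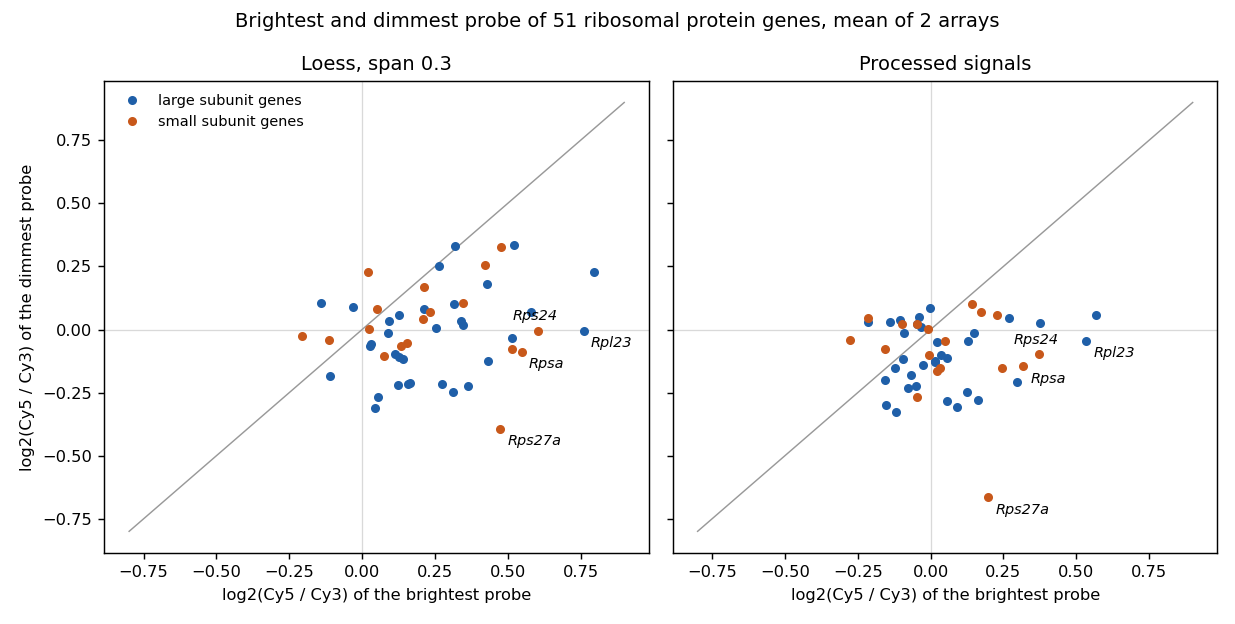
Mean log2 ratio over 2 arrays of the dimmest probe against that of the brightest probe for 51 ribosomal protein genes with 2 or more tested probes, after loess at the left and with processed signals at the right. The line marks equal ratios, and 44 of the genes drawn lie below it after loess and 37 with processed signals. The 4 labelled genes have the widest range between probes of those drawn.

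The ratios of the ribosomal protein genes went with the brightness of their spots. Spot intensity, the mean of the log2 signals of both channels, is used here only as a technical measure. It holds the Cy5 signal that also enters the ratio, so intensity and ratio are not independent of each other. The intensity was above 16 for 79 of the 87 genes (90.8%) and for 741 of the other genes (3.1%). Among the 79 genes, the log2 ratio after loess rose with intensity across genes (Pearson's r = 0.84, Spearman's rho = 0.88), where genes of the same arrays and dyes are not independent replicates. The relation had r = 0.69 both with processed signals and with the narrower loess. Of the 44 genes above an intensity of 17, 41 were raised (93.2%), beside 84.1% of 239 other genes that bright.

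Other genes of the same brightness can be set beside them. In the 741 other genes above 16, the correlation with intensity was r = 0.51. The median log2 ratio there was 0.16, against 0.21 for the 79 ribosomal protein genes. With processed signals these medians were 0.011 and 0.015. Among the other bright genes 53.7% were raised and 7.83% lowered, and among the ribosomal protein genes 64.6% and 5.06%. Between intensities of 14 and 16, 2 of 2 ribosomal protein genes, *Rpl22l1* and *Rpl36al*, were lowered. Of the 1535 other genes there, 21.7% were raised and 37.6% lowered. Between intensities of 16 and 16.5, 2 of 13 ribosomal protein genes were raised and 3 lowered, against 26.8% and 14.2% of 254 other genes. Between 16.5 and 17, 8 of 22 were raised and 1 lowered, against 52% and 4.44% of 248 other genes, with medians of 0.11 and 0.13 that were -0.086 and -0.018 with processed signals. Between 17 and 17.5 the medians were 0.35 for 32 ribosomal protein genes and 0.32 for 212 other genes, and between 17.5 and 18 they were 0.53 for 12 and 0.59 for 27. The share of this trend in the ratio of any single gene was not tested. Between the 2 arrays, the processed log2 signals of the 87 genes differed with an SD of 0.13 in Cy3, where both arrays held the same pool, and of 0.091 in Cy5.

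**Figure D3:**
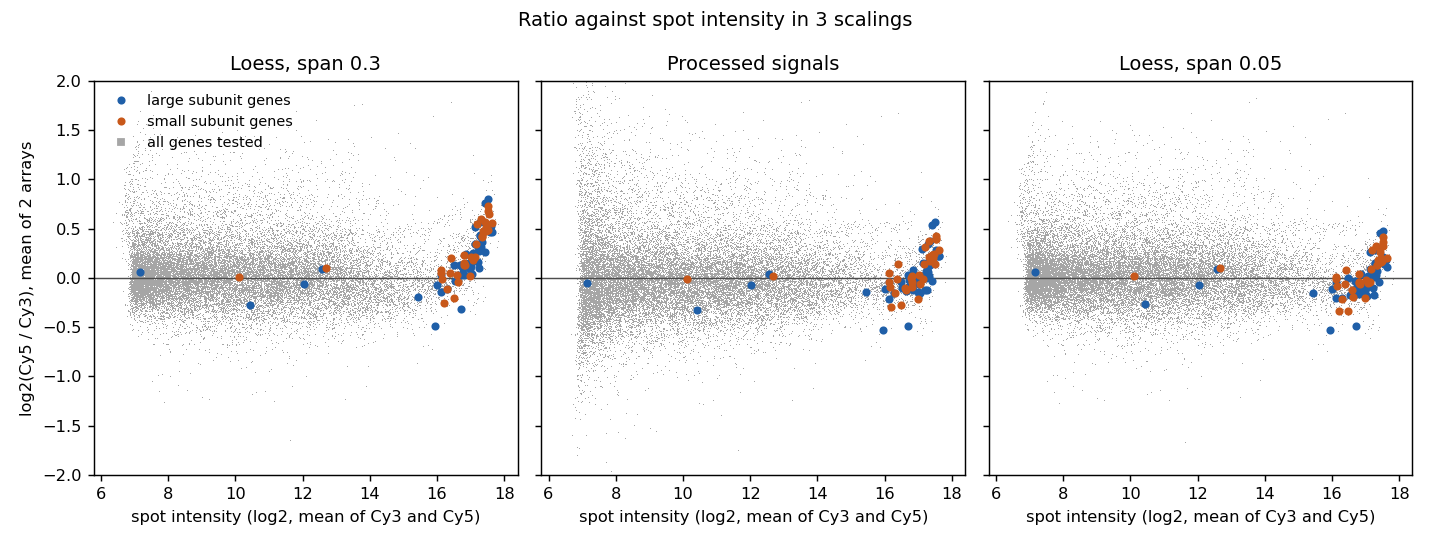
Mean log2 ratio over 2 arrays against spot intensity for all genes tested (grey) and the ribosomal protein genes (blue and orange) in 3 scalings. The axis ends at 2 in both directions, and 269 genes, none of them ribosomal protein genes, lie beyond it with processed signals. The ribosomal protein genes sit at the bright end and bend upward with intensity, with r = 0.84 after loess and 0.69 in the other scalings for the 79 genes above 16.

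The number of genes called depended on how the arrays were scaled. With processed signals, 20 ribosomal protein genes were raised and 7 lowered, against 21.9% and 23.3% of all genes. With the narrower loess, chosen after the trend was seen, 25 were raised and 19 lowered, against 29.8% and 24% of all genes. The authors' table gave 23 raised and 7 lowered genes, beside 24.9% and 19.1% of all genes. Median centring, which leaves the trend in place, raised 84 genes and lowered 0, beside 54.5% and 8.74% of all genes, and raw signals raised 87 and lowered 0, beside 86.9% and 0.162%. Relative to the median of all genes, the median of the family was higher by 0.49 in raw signals and by 0.48 after centring, by 0.15 after loess and by 0.027 with processed signals, and it was -0.0075 with the narrower loess.

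Some genes passed in every scaling that follows intensity. Under loess, processed signals and the narrower loess alike, 19 ribosomal protein genes were raised and 6 lowered. This is 21.8% and 6.9% of the 87 genes, beside 21.3% and 19.6% of all genes, so the share raised is close to that of all genes. The 19 are 9 large-subunit genes, among them *Rplp0*, *Rpl23* and *Rpl14*, and 10 small-subunit genes, among them *Rps28*, *Rps14* and *Rps24*. The 6 lowered genes are *Rpl22l1*, *Rpl3*, *Rpl7l1*, *Rps4x*, *Rps18* and *Rpl21*, of which *Rps18* and *Rpl21* were not called with the mean of their probes. Of the 19 raised genes, 2 were not called with that mean either, among them *Rpsa* (0.12, limma adjusted p = 0.0546).

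**Figure D4:**
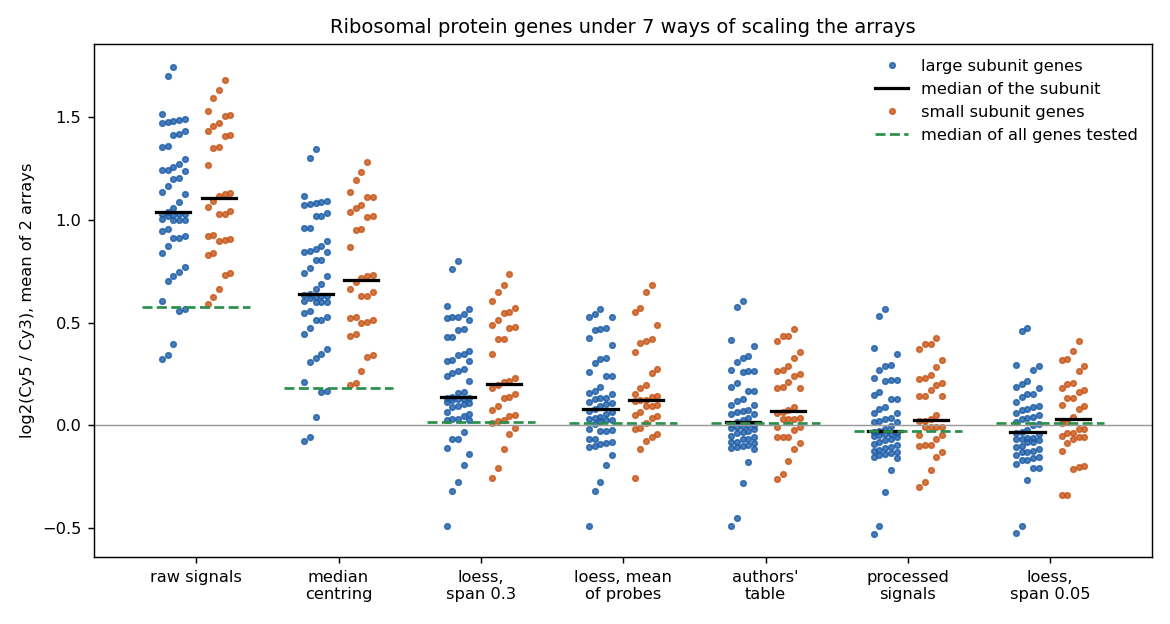
Mean log2 ratio over 2 arrays of each ribosomal protein gene (blue large subunit, orange small subunit) under 7 ways of scaling the arrays. Black bars are medians of a subunit and green dashed lines the median of all genes tested, and the sideways spread of points has no meaning. The median of the family falls from 1.06 in raw signals to 0.16 after loess and -0.0021 with processed signals, while the bar of the small subunit lies above that of the large one throughout.

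Ribosomal proteins that the name rule leaves out were bright too. *Rack1*, a scaffold on the small subunit, had log2 ratios of 0.84 and 0.66 and kept a positive ratio with processed signals, at 0.43. *Fau*, a fusion of a ubiquitin-like protein with a small-subunit protein, was at 0.14 and 0.19 after loess but at -0.13 with processed signals and -0.15 with the narrower loess.

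Genes that build or serve the ribosome without being part of it were taken from fixed lists. Of 15 translation factors and partners whose mRNAs carry a TOP motif, 3 were raised and 3 lowered (20% each way, beside 30.6% and 23.7% of all genes), with a median log2 ratio of -2.21e-05. With processed signals 1 was raised and 3 were lowered, and with the narrower loess 2 and 3. *Tpt1* had the highest ratio of this list at 0.45 on both arrays, and *Hnrnpa1* the lowest at -0.42 and -0.38. Of 61 ribosome assembly factors, 8 were raised and 25 lowered (13.1% and 41%, beside the same shares of all genes), and 4 and 25 with processed signals. Their median was -0.099, and -0.13 with processed signals, while it was 0.58 in raw signals beside 0.57 for all genes. *Pes1*, which acts in assembly of the large subunit, was at 0.84 and 0.97, and *Ubtf*, a factor of RNA polymerase I, at 0.74 and 0.64. These rest on the brightest probe. The mean of all tested probes was 0.32 for *Pes1*, and 0.14 for *Ubtf*, which was then not called (limma adjusted p = 0.0517). *Fbl*, the methyltransferase of ribosomal RNA, was at -0.53 and -0.49. Of the 8 RNA polymerase I subunits tested from a list of 11, 1 was raised (*Polr1d*, 0.25) and 3 were lowered (the lowest *Polr1b* at -0.23), beside 30.6% and 23.7% of all genes. With processed signals 1 was raised and 1 lowered, and with the narrower loess 1 and 2. The call of *Polr1d* was lost with the mean of its probes (0.12, limma adjusted p = 0.0745), and that of *Polr1b* with processed signals (-0.27, limma adjusted p = 0.0571). The assembly factors and polymerase subunits were dimmer than most ribosomal protein genes, with median intensities of 13.3 and 12.2 against 17.01.

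Markers of other cell types moved with the treatment as well. Of 13 fibroblast markers tested, 12 were raised and 0 lowered, beside 30.6% and 23.7% of all genes, with a median log2 ratio of 0.75 (0.76 and 0.73 on the arrays of replicates 1 and 2), and of 13 markers of extraembryonic endoderm, 13 were raised, with a median of 1.05. Embryonic stem cell markers were mixed, with 4 raised and 8 lowered of 13. The raised ones were *Dppa5a* at 0.52 and 0.48, *Tfcp2l1* at 0.27 and 0.39, *Klf2* at 0.30 and 0.28 and *Klf4* at 0.16 and 0.12. Among the lowered ones were *Pou5f1* at -0.64 and -0.32, *Nanog* at -0.31 and -0.44 and *Tdgf1* at -0.55 and -0.64. All 13 passed the filter on dim probes. Fibroblast markers were dim, with intensities between 7.56 and 13.26. The part of these cells in the ratios of the ribosomal protein genes was not tested.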

How the data were processed

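The authors deposited Agilent Feature Extraction output (version 11.5.1.1 in the header) with the intensity of each spot and its background, processed intensities after background subtraction and dye normalization, and a deposited log10 ratio of Cy5 over Cy3. The authors' deposited table holds log2 ratios, equal to the scanner's ratio plus a shift of 0.040 on each array. Median signals were corrected with normexp (offset 50) and normalized by loess (span 0.3). Control spots and outlier-flagged spots (215 and 227) were dropped, and 33012 of 55681 probes, in 24022 genes, passed the filter on dim probes. The brightest probe stands for a gene. Ratios were tested against 0 with lmFit and eBayes (1 residual and 5.29 prior degrees of freedom), with Benjamini-Hochberg adjustment over all genes. Symbols and start windows came from RefSeq tables on GRCm38.p6. Named are *Eef1e1*, members over 1.5-fold, the 5 highest and 5 lowest members, paralogs, Mdm2 binders, the 5 members whose probes differ most, and, of the other lists, the highest, the lowest and those over 1.5-fold; other genes were named after their values were seen. Members and lists were chosen with earlier results of these data known. Alternatives were other background, scaling, filter and probe rules, the authors' table and single arrays. Of the columns with per-sample values, 0 were left out. The steps were tested on simulated data. The values of 2 genes are not reported here. Software was limma 3.58.1 in R 4.3.3, with jsonlite 2.0.0 and data.table version 1.17.8.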

Additional observations from a re-analysis of the deposited data

How the results depend on the processing

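Without background subtraction, with no filter or a stricter filter on dim probes, the numbers of ribosomal protein genes raised, lowered and over 1.5-fold stayed within 1.5 times those after loess, and the 39 named genes kept their sign, but without a filter *Rpl36al* and *Fau* lost their calls (limma adjusted p = 0.05004 and 0.0660). The median log2 ratio of the 87 genes was 0.66 with median centring, 1.06 in raw signals, 0.10 with the mean of all probes, 0.038 in the authors' table, -0.0021 with processed signals and 0.0024 with a loess span of 0.05, which was chosen after seeing the data. The number raised was 84, 87, 39, 23, 20 and 25 in these settings, in the same order, and the number lowered was 0, 0, 6, 7, 7 and 19. Of all genes, 54.5%, 86.9%, 30.2%, 24.9%, 21.9% and 29.8% were raised, and 8.74%, 0.162%, 23.8%, 19.1%, 23.3% and 24% lowered. Over 1.5-fold upward were 58, 82, 2, 1, 0 and 0 genes, beside 11.8%, 48.4%, 5.01%, 8.87%, 8.09% and 5.29% of all genes. The median range between probes was 0.38 with median centring, 0.37 in raw signals, 0.18 in the authors' table and with processed signals, and 0.16 with the span of 0.05. With single arrays it lay between 0.26 and 0.27, the median log2 ratio between 0.14 and 0.20, and the large minus small difference between -0.064 and -0.032. Ratios turned positive in raw signals for *Rpl22l1* (0.34), *Rpl3* (0.57), *Rpl7l1* (0.32), *Rps4x* (0.59), *Rps18* (0.66), *Rpl39l* (0.56), *Rps4l* (0.47), *Rpl36al* (0.61), *Rpl36a* (0.75), *Rpl5* (0.77), *Rps7* (0.84), *Hnrnpa1* (0.29), *Fbl* (0.18), *Polr1b* (0.39) and *Mrpl2* (0.28), and after median centring for *Rpl3* (0.17), *Rps4x* (0.19), *Rps18* (0.27), *Rpl39l* (0.16), *Rps4l* (0.074), *Rpl36al* (0.21), *Rpl36a* (0.35), *Rpl5* (0.37) and *Rps7* (0.44). Of the 39 named genes, calls were lost with the sign kept for 4 with processed signals, 5 in the authors' table, 5 with the mean of all probes, 5 with median centring and 2 each with the span of 0.05 and with no filter. Raw signals and median centring also shift the median of all genes. Ratios turned negative with the span of 0.05 for *Rpl26* (-0.13), *Rps27* (-0.037) and *Fau* (-0.15), with processed signals for *Rps27* (-0.0094) and *Fau* (-0.13), and in the authors' table for *Fau* (-0.089). Ratios not called on either side also turned negative, for *Rpl26* (-0.079), *Rps3* (-0.046) and *Rpl3l* (-0.056) with processed signals, for *Rpl26* (-0.039), *Rps3* (-0.0057) and *Rpl3l* (-0.016) in the authors' table, for *Rps3* (-0.015) with the span of 0.05, for *Rpl26* (-0.089) with the mean of all probes and for *Rpl3l* (-0.0092) without replicate 1, and *Rps7* turned positive (0.0084) without replicate 2. The cause was not tested. No paired analysis was possible because the labels give a single group. The number of arrays limits the precision, with signals 2.68 to 3.31 times the background at the median.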

Other observations

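Mitochondrial ribosomal protein genes, whose products build the separate ribosome of mitochondria, had ratios unlike those of the cytosolic genes in the same scaling. Of 77 tested from 78 listed by name, 9 were raised and 37 lowered (11.7% and 48.1%, beside 30.6% and 23.7% of all genes), with a median log2 ratio of -0.12 (-0.12 and -0.11 on the arrays of replicates 1 and 2). With processed signals 4 were raised and 30 lowered, and with the narrower loess 13 and 26. The median was -0.11 with processed signals and -0.096 with the narrower loess, while in raw signals it was 0.54 beside 0.57 for all genes. *Mrps6* had the highest ratio of these genes, at 0.36 and 0.38, and *Mrpl2* the lowest, at -0.46 and -0.42. Their spots were dimmer, with a median intensity of 13.3 and a maximum of 15.7. The difference between the families was not tested, since genes are not replicates.

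The members that fit the name rule but encode other proteins did not pass. *Rps19bp1*, which encodes a partner of *Rps19*, had log2 ratios of 0.093 and 0.10, and *Rps23rg1* was at 0.062 and -0.036.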
